A study of Rattus norvegicus with 32 samples.

Results

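The genes described here are Crhr1, Crhbp, Nr3c1, Nr3c2, Hsd11b1, Fkbp5, Sgk1 and Tsc22d3. They are 8 members of the stress hormone system of the brain, chosen by symbol and with earlier results of these data known. Of these 8, 7 had a row of their symbol among the 32883 genes in each of the deposited count tables, and Nr3c1, the glucocorticoid receptor gene, was not analysed here. All 7 passed the filter on low counts in every comparison. Hippocampal RNA was sequenced from 32 Sprague-Dawley rats at 65 days of age, 4 rats in each of 8 groups. The groups were iron-sufficient rats (IS, the control), iron-sufficient rats whose dams were given choline (ISch), formerly iron-deficient rats (FID, ID in the diet label) and formerly iron-deficient rats whose dams were given choline (FIDch, IDch in the diet label). The low-iron diet was given to the dams from early gestation until the end of the first postnatal week, choline was given to the dams in later gestation, and all offspring ate an iron-sufficient diet afterwards. The 16 males formed sequencing batch I and the 16 females batch II, and their RNA was isolated with different kits, so sex, batch and kit cannot be told apart and no level is compared between the sexes. The methods state a single male per litter, and nothing says the same of the females, so p values there measure the spread between rats that may share a litter.

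Stress reaches the hippocampus as adrenal steroid. Corticotropin-releasing hormone (CRH) drives the pituitary and the adrenal through its receptor Crhr1, and Crhbp, a secreted protein, binds CRH and limits its action. The steroid, corticosterone in rats, acts through the mineralocorticoid receptor Nr3c2 and the glucocorticoid receptor, which are both abundant in hippocampal neurons and feed back on the stress axis. The enzyme Hsd11b1 remakes active corticosterone from its inert form inside cells. Fkbp5, Sgk1 and Tsc22d3 are long-known genes that activated corticosteroid receptors switch on. Fkbp5 is a co-chaperone that lowers the receptor's affinity for hormone, Sgk1 is a kinase that regulates ion channels and transporters, and Tsc22d3 encodes GILZ, which restrains inflammatory transcription factors.

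The 250 bases before the start of these 3 target genes are shown because the genes were lower together in female FID rats. RefSeq (assembly GRCr8) gave a promoter window for 5 of the 7 genes, 10 windows in all, and none for Nr3c2 or Hsd11b1. Capitals mark TATAAA and CCAAT motifs on either strand. The windows are Fkbp5 at chr20:6543556-6543805, an Sgk1 window at chr1:24804832-24805081 and a Tsc22d3 window at chrX:109010035-109010284, all on the minus strand and written 5′ to 3′.
Fkbp5: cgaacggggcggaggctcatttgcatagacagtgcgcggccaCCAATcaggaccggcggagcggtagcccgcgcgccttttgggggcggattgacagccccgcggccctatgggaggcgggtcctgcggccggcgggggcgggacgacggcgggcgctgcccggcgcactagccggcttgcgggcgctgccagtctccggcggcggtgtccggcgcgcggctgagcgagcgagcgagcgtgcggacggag
Sgk1: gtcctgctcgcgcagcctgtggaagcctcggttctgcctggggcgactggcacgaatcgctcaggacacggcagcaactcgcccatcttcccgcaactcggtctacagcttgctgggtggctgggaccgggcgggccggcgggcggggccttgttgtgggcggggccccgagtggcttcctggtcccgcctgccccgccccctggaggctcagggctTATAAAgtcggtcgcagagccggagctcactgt
Tsc22d3: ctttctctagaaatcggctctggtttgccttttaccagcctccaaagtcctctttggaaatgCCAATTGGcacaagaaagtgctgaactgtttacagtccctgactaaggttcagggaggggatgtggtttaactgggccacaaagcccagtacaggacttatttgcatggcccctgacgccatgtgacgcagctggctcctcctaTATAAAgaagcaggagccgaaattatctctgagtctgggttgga

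Sgk1 and Tsc22d3 have 3 windows each in the table, of which those with a TATAAA motif nearest to the start are shown. A further Sgk1 window holds the motif 55 bases before its start, and the other windows of both genes hold neither motif. In the windows shown, the TATAAA motif of Sgk1 began 33 bases and that of Tsc22d3 44 bases before the gene start, and the Fkbp5 window held none. That motif was found in 12.9% of the 33469 windows of this length in the table. A CCAAT motif began 208 bases before the start of Fkbp5, the capitals of the Tsc22d3 window hold CCAAT overlapping its reverse complement, and 34% of all windows held that motif. Neither AGAACA, the hexamer repeated in the glucocorticoid response element, nor its reverse complement was found in any of the 10 windows, against 17.5% of all windows. The 10 windows come from only 5 genes, and those of Crhr1 overlap each other. The full element, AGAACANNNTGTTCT, was in 0.012% of all windows. This says only that these letters are not in these windows.

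The male libraries held 3515806 to 9517503 counts, with a median of 8007907, and the female libraries 18439999 to 26616318, with a median of 21747536.5. Markers of excitatory neurons summed to 5462 to 7052 CPM (counts scaled to the size of the library) in every library, those of oligodendrocytes to 6322 to 9324 and those of astrocytes to 3826 to 4773. Choroid plexus markers summed to 2.49 to 17.8 CPM, apart from 390.6 CPM in male FID replicate 4. Pomc, the pituitary ACTH precursor, was at 120.9 CPM in female IS replicate 3 and at or below 1.78 CPM in all other libraries. Results that rest on these libraries are given with and without them. In what follows, levels are CPM normalised by TMM within a sex. Here p comes from edgeR's quasi-likelihood test, which the study's methods do not name. A gene is called when it passes the limits that the study set, a log2 fold change of more than 0.2 in either direction and, before adjustment, p below 0.05. These 2 limits are named the fold limit and the p limit, and together the criterion. Adjusted p values are Benjamini-Hochberg values over all genes tested.

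In female FID rats the 3 target genes Fkbp5, Sgk1 and Tsc22d3 were lower than in IS rats, and no other member was called. These were 3 of 7 members, against 6.47% of all genes tested in that comparison. Female FIDch rats differed from FID rats in 4 of 7 members (12.7% of all genes) and from IS rats in 2 (8.98%), and female ISch rats from IS rats in 1 (10.3%). Among males, ISch against IS had 1 member called (8.06%), FID against IS 2 (4.62%), FIDch against IS 1 (6.12%) and FIDch against FID 2 (13%). None of the 7 members had an adjusted p below 0.05 in any of these 8 comparisons. Of all genes, 0% (male FID against IS) to 2.54% (female ISch against IS) had one. The 3 comparisons with IS in a sex share the same IS rats, and the FID rats enter 2 comparisons, so these counts are not independent.

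**Figure D1:**
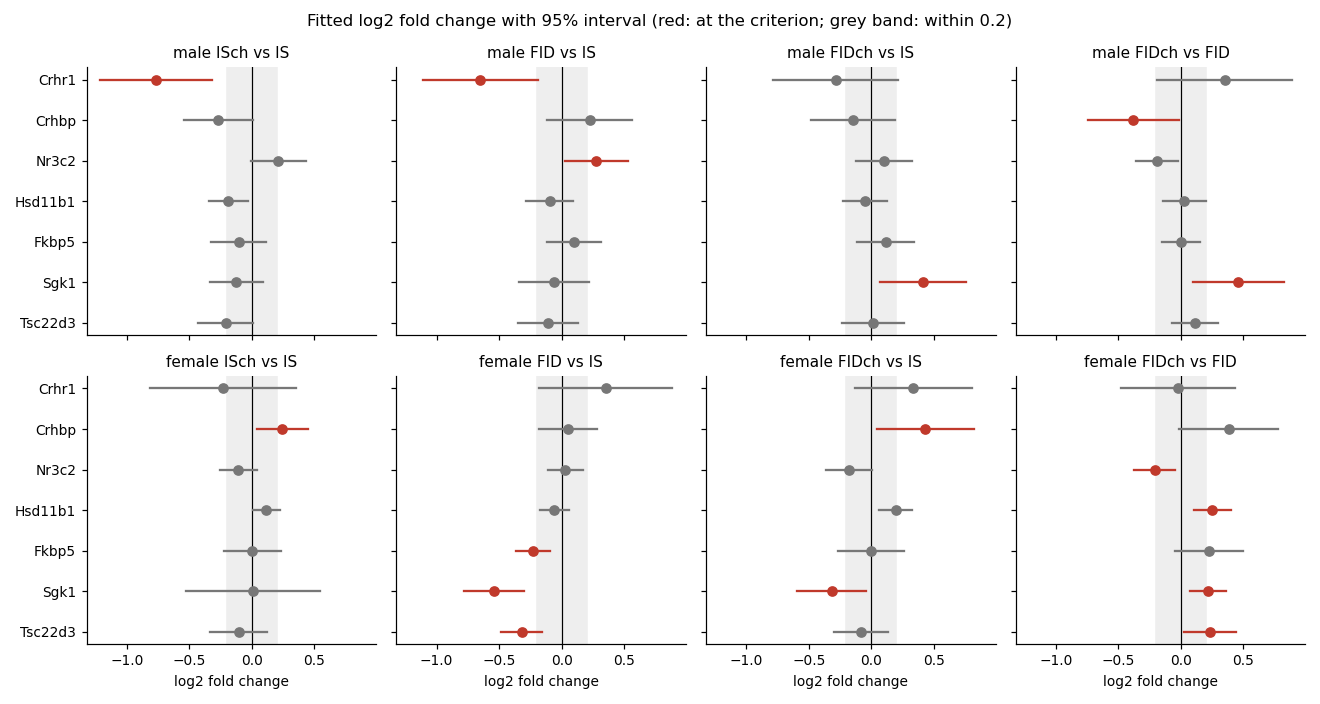
Fitted log2 fold change (x axis) of each of the 7 genes (y axis) in the 4 comparisons of male rats (upper row) and female rats (lower row), 4 rats against 4. Points are edgeR estimates, lines are 95% intervals, red marks calls and the grey band spans -0.2 to 0.2. In female FID against IS the red points are Fkbp5 at -0.23, Sgk1 at -0.54 and Tsc22d3 at -0.32.

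Crhr1, the CRH receptor, was lower in male ISch and male FID rats than in male IS rats. Male IS rats had 4.12, 4.30, 5.74 and 4.41 CPM. Male ISch rats had 1.94, 3.08, 2.87 and 2.91 CPM, and male FID rats 3.72, 3.06, 2.23 and 2.88 CPM. All 8 of these rats lay below all 4 controls, so neither group overlapped IS, which held for 6.15% of genes in ISch against IS and for 3.57% in FID against IS. On the log2 scale the difference was -0.77 (SE 0.21, adjusted p = 0.275) in ISch and -0.65 (SE 0.21, adjusted p = 0.786) in FID by edgeR. The exact 2-sided permutation test gave p = 0.029 for each, the smallest value 4 rats against 4 allow. Both calls were kept in every alternative, including without male FID replicate 4, where the FID value was -0.63. The gene was rare, at 7 to 38 raw counts per male library, so counting error is a large part of each value.

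Male FIDch rats had Crhr1 at 3.65, 1.98, 3.97 and 4.92 CPM, which overlapped both IS and FID. The value of 1.98 CPM came from 7 counts in the shallowest library. Against FID the difference was 0.35 with a 95% interval from -0.19 to 0.89 on the log2 scale. In females Crhr1 lay between 1.41 and 4.10 CPM over all 16 rats and was called in none of the 4 comparisons. The female FID mean was 2.89 ± 0.84 CPM (SD, n = 4) against 2.27 ± 0.62 in IS, a log2 difference of 0.35 with an interval from -0.18 to 0.89.

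Crhbp, which sequesters CRH, was higher in female rats whose dams had choline than in IS females. Female IS rats had 9.70, 11.01, 12.1 and 9.66 CPM and female ISch rats 13.1, 11.9, 13.0 and 12.3 CPM, of which the lowest lay just under the highest control. Female FIDch rats ranged widely, at 15.8, 18.8, 9.75 and 12.8 CPM. The log2 fold change was 0.24 (SE 0.093, adjusted p = 0.224) in ISch and 0.43 (SE 0.18, adjusted p = 0.329) in FIDch against IS. The ISch call was lost without IS replicate 1 (0.21) or 4 (0.20), and with the 4 female diets in a single fit. The FIDch call was lost without IS replicate 1 (0.39), 2 (0.45) or 4 (0.39) or FIDch replicate 1 (0.38) or 2 (0.27), and with the replicate number as a block (0.40). Female FID rats, at 9.11 to 12 CPM, overlapped IS. FIDch against FID came to 0.38 and missed the p limit (adjusted p = 0.291). That difference met the criterion without FIDch replicate 3 (0.53) or 4 (0.43), by DESeq2 (0.38) and by edgeR's likelihood ratio test (0.38). The same held with library size alone (0.41), all genes of at least 1 count (0.38), the 4 diets in a single fit (0.39) and the replicate block (0.35).

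In males Crhbp was lower in FIDch than in FID. Male FID rats had 16.1, 19.9, 12.1 and 14.5 CPM and male FIDch rats 13.9, 8.20, 11.7 and 13.4 CPM, and these ranges overlapped. The change in Crhbp was -0.38 on the log2 scale (SE 0.17, adjusted p = 0.261). This call was lost without FID replicate 1 (-0.37) or 2 (-0.23) or FIDch replicate 2 (-0.29) or 3 (-0.35), and with the replicate number as a block (-0.36). Male ISch rats had 10.3, 10.1, 11.7 and 12.1 CPM against 15.2, 11.04, 13.8 and 13.4 CPM in IS, and that difference of -0.27 missed the p limit (adjusted p = 0.484). It met it without IS replicate 2 (-0.35) or ISch replicate 4 (-0.32). FID against IS, at 0.23, met it without FID replicate 3 (0.33).

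**Figure D2:**
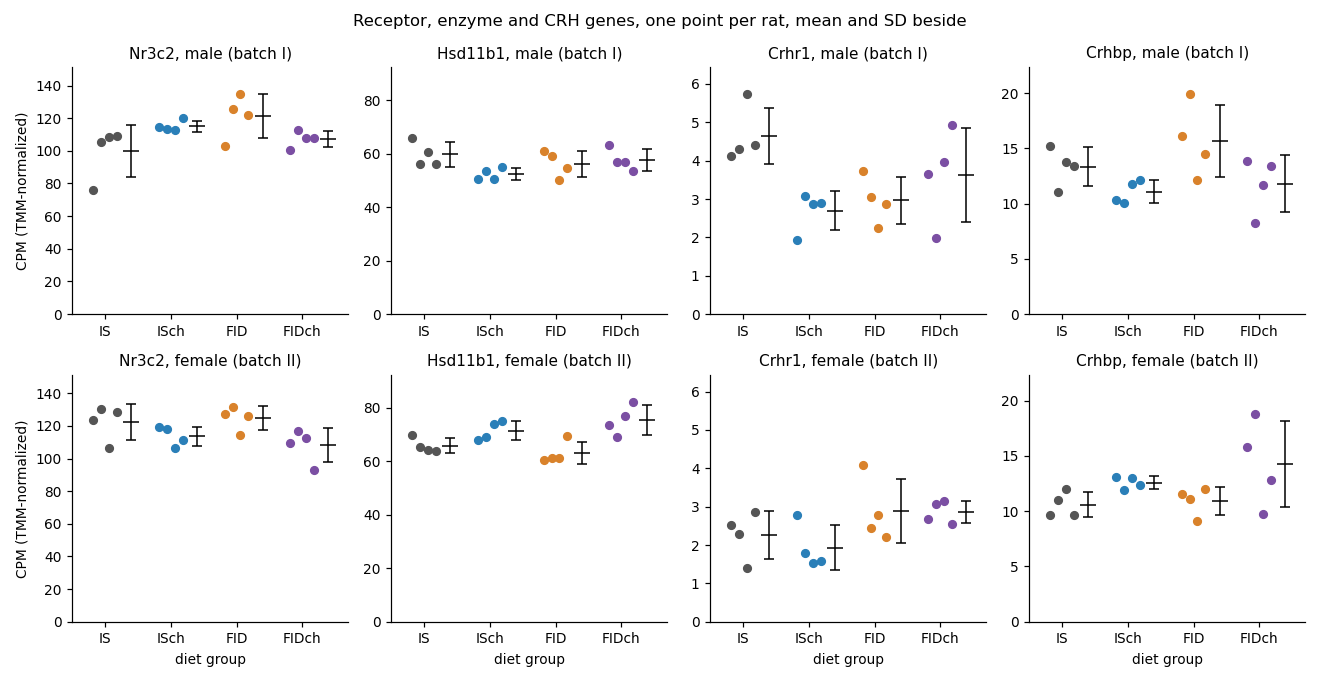
TMM-normalised CPM (y axis) of Nr3c2, Hsd11b1, Crhr1 and Crhbp in the 4 diet groups (x axis), males above and females below, with a point per rat and the mean ± SD of the 4 rats beside it. All 8 male ISch and FID rats lie below the 4 male IS rats for Crhr1, and Nr3c2 in male IS replicate 1, at 75.9 CPM, lies below all other males.

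Nr3c2, the high-affinity mineralocorticoid receptor, was higher in male FID than in male IS rats and lower in female FIDch than in female FID rats. Male IS rats had 75.9, 105, 109 and 109 CPM, of which the lowest stood well apart from the others. Male FID rats had 103, 125, 135 and 122 CPM. The log2 fold change was 0.28 (SE 0.12, adjusted p = 0.786), and the ranges overlapped. The call rested on single rats, since it was lost without IS replicate 1 (0.17) or FID replicate 2 (0.27), 3 (0.22) or 4 (0.28). Male ISch rats, at 114, 113, 113 and 120 CPM, were all above the 4 controls, where 6.15% of all genes had no overlap in either direction. Yet the difference of 0.21 had an adjusted p of 0.492 and missed the p limit. It met the criterion without IS replicate 3 (0.26) or 4 (0.25), and with the replicate block (0.22). The same held with library size alone (0.22), all genes of at least 1 count (0.21) and the 4 male diets in a single fit (0.21). Male FIDch rats, at 101, 112, 108 and 108 CPM, differed from FID by -0.19 (adjusted p = 0.225), just inside the fold limit. That difference passed the limit without FID replicate 1 (-0.26) or FIDch replicate 2 (-0.21).

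Female FIDch rats had Nr3c2 at 109.6, 117, 113 and 93.1 CPM against 127, 131, 115 and 126 CPM in female FID rats. Only the highest FIDch rat lay above the lowest FID rat. By edgeR the log2 fold change was -0.21 (SE 0.073, adjusted p = 0.159), close to the fold limit. It went under that limit without FID replicate 2 (-0.18) or FIDch replicate 4 (-0.14), and with library size alone as the scaling (-0.18). Female IS rats, at 124, 131, 106 and 128 CPM, and ISch rats, at 119, 118, 106 and 111 CPM, differed by -0.11 with an interval from -0.26 to 0.039. Female FIDch against IS came to -0.18 and missed both limits (adjusted p = 0.397), and met the criterion without IS replicate 3 (-0.24) or FIDch replicate 2 (-0.22).

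Hsd11b1, the enzyme that regenerates corticosterone, was higher in female FIDch than in female FID rats. Female FID rats had 60.7, 61.3, 61.3 and 69.5 CPM and female FIDch rats 73.5, 69.2, 77.0 and 82.4 CPM, so that a single FID rat reached the lowest FIDch rat. The log2 fold change was 0.25 (SE 0.067, adjusted p = 0.0817), and the call was kept in all 16 alternatives. In this comparison 2 of 6 astrocyte markers were called higher. Of 5 endothelial and 5 thalamus and striatum markers, 2 each were called lower (12.7% of all genes were called). Thalamus and striatum markers summed to 28.2 to 33.5 CPM in FIDch and 34.5 to 38.8 CPM in FID. Interneuron, excitatory neuron, microglia and choroid plexus markers had 1 called each, and oligodendrocyte markers 0. The part of cell composition in any member's difference here was not tested. Female IS rats had 70.04, 65.4, 64.1 and 64.1 CPM. Against these, FIDch was 0.20 higher on the log2 scale (0.196, adjusted p = 0.203), just short of the fold limit, and ISch 0.12 higher (adjusted p = 0.281). The FIDch value passed the limit with library size alone as the scaling (0.21) and without IS replicate 1 (0.22) or FIDch replicate 1 (0.21) or 2 (0.24). Over the 4 female diets together Hsd11b1 had an adjusted p of 0.0426 by edgeR, and it was the only member below 0.05 there. Of all genes, 5.34% had an adjusted p below 0.05 in that test. The adjusted p of Hsd11b1 ranged from 0.00482 to 0.109 over its 23 alternatives, all of which kept the call. The 4 female members called in that test were Hsd11b1, Sgk1, Crhbp and Nr3c2, against 17.6% of all genes. Sgk1 lost the call without IS replicate 1 or 4, any FID replicate or FIDch replicate 1, 2 or 3. Crhbp lost it without IS replicate 1, 2 or 4, FID replicate 2 or 3 or FIDch replicate 1 or 2. Nr3c2 lost it without IS replicate 1, 2 or 4, ISch replicate 4, FID replicate 1, 2 or 4 or FIDch replicate 1 or 4, with largest differences from 0.15 to 0.21.

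In males Hsd11b1 stood lower in ISch, at 50.7, 53.4, 50.4 and 55.1 CPM, than in IS, at 66.1, 56.1, 60.7 and 56.2 CPM. These groups did not overlap, as in 6.15% of all genes, and without overlap the exact permutation test always gives its smallest p, here 0.029. The log2 fold change of -0.19 (SE 0.073, adjusted p = 0.439) nevertheless stayed inside the fold limit of the criterion. It passed it without IS replicate 2 (-0.22) or 4 (-0.22) or ISch replicate 4 (-0.22). Male FID and FIDch rats, at 50.05 to 61.0 and 53.5 to 63.1 CPM, overlapped IS. The male members called over the 4 diets together were Crhr1, Sgk1, Crhbp and Nr3c2 (12.5% of all genes), none with an adjusted p below 0.05 by edgeR. In that test 0.748% of all genes had an adjusted p below 0.05. Crhr1 kept that call in all 24 alternatives. Sgk1 lost it without FIDch replicate 1 or 2, and Crhbp without ISch replicate 2 or FID replicate 1 or 2. Nr3c2 lost it without IS replicate 1, ISch replicate 4, FID replicate 2, 3 or 4 or FIDch replicate 1 or 3.

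Sgk1 showed the largest change of the 3 target genes in female FID rats. Female IS rats had 106, 76.2, 82.0 and 117 CPM and female FID rats 65.5, 67.4, 63.9 and 65.1 CPM. The 4 FID rats lay within a narrow band under all 4 controls. The mean was 65.5 ± 1.45 CPM against 95.3 ± 19.3 (SD, n = 4 each), a log2 fold change of -0.54 (SE 0.11, adjusted p = 0.0726 by edgeR). The call was kept in all 16 alternatives, with values from -0.63 to -0.42 and adjusted p from 0.00091 to 0.467. Without IS replicate 3, the library with the high Pomc level, the value was -0.61, and those of Tsc22d3 and Fkbp5 described next were -0.37 and -0.25.

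Tsc22d3 moved the same way. Female IS rats had 72.0, 63.7, 61.3 and 74.7 CPM and female FID rats 55.9, 57.1, 57.0 and 47.9 CPM. Again no FID rat reached the lowest control. On the log2 scale the difference was -0.32 (SE 0.075, adjusted p = 0.114), and the call was kept in all 16 alternatives.

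Fkbp5 had the smallest change of these genes. Female IS rats had 84.1, 76.1, 76.7 and 82.7 CPM and female FID rats 63.7, 75.2, 71.1 and 62.9 CPM, which left only a small gap between the groups. The log2 fold change was -0.23 (SE 0.062, adjusted p = 0.179). The call was lost without FID replicate 1 (-0.20) or 4 (-0.19), which brought the value under the fold limit, and with the 4 female diets in a single fit (-0.23). All 3 genes gave p = 0.029 in the exact permutation test, and 6.48% of all genes had groups that did not overlap in this comparison. Summed astrocyte markers were 3992 to 4315 CPM in female FID and 4247 to 4388 CPM in female IS. Of these 6 markers 0 were called and 0 lay above 0, with a median log2 fold change of -0.069. Excitatory neuron, oligodendrocyte, microglia and choroid plexus markers had 0 called, and interneuron and endothelial markers 1 each. The part of cell composition in these differences was not tested, and in bulk tissue fewer cells of a type and less RNA per cell cannot be told apart.

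**Figure D3:**
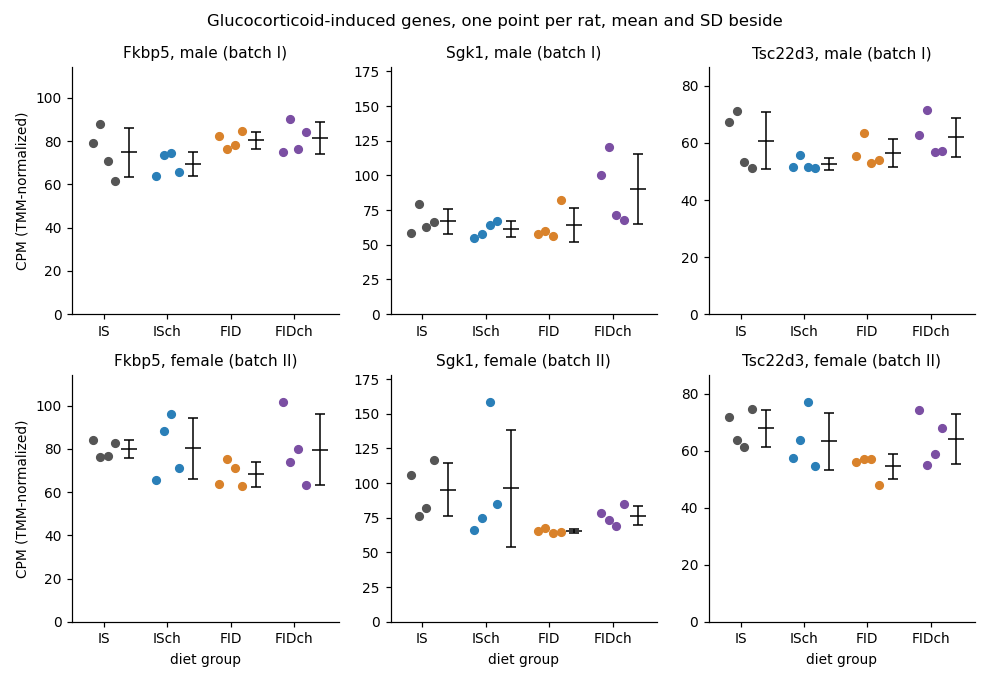
TMM-normalised CPM (y axis) of Fkbp5, Sgk1 and Tsc22d3 in the 4 diet groups (x axis), males above and females below, with a point per rat and the mean ± SD of the 4 rats beside it. For each gene the 4 female FID rats lie below the 4 female IS rats. Male FIDch replicates 1 and 2 reach 100.3 and 121 CPM of Sgk1.

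With prenatal choline, formerly iron-deficient females had higher Sgk1 and Tsc22d3 than without it. Female FIDch rats had Sgk1 at 78.7, 73.1, 69.1 and 84.8 CPM, all above the 4 FID rats, which was so for 11.8% of all genes in either direction. The log2 fold change against FID was 0.22 (SE 0.065, adjusted p = 0.109). It went under the fold limit without FIDch replicate 4 (0.17), and missed the p limit with the 4 diets in a single fit (0.22). Tsc22d3 stood at 74.3, 55.1, 59.0 and 68.1 CPM in FIDch, 0.23 above FID (SE 0.095, adjusted p = 0.227). That call was lost without FID replicate 4 (0.18) or FIDch replicate 1 (0.15) or 4 (0.21). Fkbp5 stood at 102, 73.9, 79.96 and 63.1 CPM, and its difference of 0.22 missed the p limit (adjusted p = 0.378). It met the criterion without FIDch replicate 4 (0.32). The marker differences between these groups given above for Hsd11b1 hold here too, and the part of cell composition was not tested.

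Against IS, female FIDch rats were lower in Sgk1, at -0.32 (SE 0.13, adjusted p = 0.319). The call was lost without IS replicate 1 (-0.26) or 4 (-0.20) or FIDch replicate 2 (-0.30) or 3 (-0.27), and with the 4 diets in a single fit. For Fkbp5 the difference from IS was -0.0022 with an interval from -0.26 to 0.26, and for Tsc22d3 -0.083 with an interval from -0.30 to 0.13. Female ISch rats had Sgk1 at 66.1, 75.0, 159 and 85.1 CPM, where replicate 3 was the highest of the 16 females. Its difference from IS was 0.010 with an interval from -0.52 to 0.54, and it became -0.34 and met the criterion without that rat. The same rat also had the highest Tsc22d3 level of its group, 77.2 CPM, and without it that gene also met the criterion, at -0.21.

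In males none of the 3 target genes was called in FID against IS. Male IS rats had Sgk1 at 58.8, 79.2, 63.0 and 66.1 CPM and male FID rats at 57.8, 60.2, 56.5 and 82.3 CPM. That difference was -0.061 with an interval from -0.34 to 0.22, and -0.20 without FID replicate 4, the library with choroid plexus markers. The female estimate of -0.54 lay outside the male interval, but its own interval, from -0.78 to -0.30, overlapped it. Male FIDch rats had 100.3, 121, 71.7 and 68.0 CPM, and the first 2 of these stood above all other males. Sgk1 was called higher in FIDch against IS (0.42, SE 0.16, adjusted p = 0.539) and against FID (0.46, SE 0.17, adjusted p = 0.191). Against IS the call was lost without IS replicate 1 (0.35) or FIDch replicate 1 (0.35) or 2 (0.26). Against FID it was lost without FID replicate 3 (0.40) or FIDch replicate 1 (0.40) or 2 (0.31). Without FID replicate 4, the library with choroid plexus markers, it was 0.60. FIDch replicate 2 was the shallowest library.

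Male Fkbp5 and Tsc22d3 were called in none of the 4 comparisons. Fkbp5 ranged from 61.4 to 90.5 CPM over the 16 males, and its FID level differed from IS by 0.10 with an interval from -0.12 to 0.31. Tsc22d3 stood at 67.3, 71.3, 53.2 and 51.2 CPM in IS, which spanned nearly the whole male range. Male ISch rats were lower in Tsc22d3, at 51.7, 55.7, 51.6 and 51.3 CPM, but the difference of -0.21 missed the p limit (adjusted p = 0.492). It met the criterion without IS replicate 3 (-0.26) or 4 (-0.28), with all genes of at least 1 count (-0.21) and with the 4 male diets in a single fit (-0.21). FID against IS gave -0.11 with an interval from -0.35 to 0.13.

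From rat to rat, Tsc22d3 varied with Fkbp5 in both sexes and with Sgk1 in females. Across the 16 rats of a sex, Fkbp5 and Tsc22d3 had Pearson's r of 0.667 in males (permutation p = 0.00515, adjusted over 6 tests 0.0103) and 0.728 in females (p = 0.0014, adjusted 0.0042). Spearman's rho was 0.732 (p = 0.00202) and 0.735 (p = 0.00174), and without the 2 rats farthest from the median r was 0.607 and 0.567. Sgk1 and Tsc22d3 had r of 0.773 in females (p = 0.0001, adjusted 0.0006; rho 0.706, p = 0.00291), and 0.661 without the 2 farthest rats. In males that pair had r of 0.543 (p = 0.0266, adjusted 0.0319; rho 0.382, p = 0.145), which fell to 0.202 without FIDch replicates 1 and 2 and so rested on those rats. Fkbp5 and Sgk1 had r of 0.564 in females (p = 0.0212, adjusted 0.0318; rho 0.582, p = 0.0197) and 0.462 in males (p = 0.0718, adjusted 0.0718; rho 0.424, p = 0.103). Without the 2 farthest rats these were 0.50 (permutation p = 0.0676) and 0.446. Once each value was centred on its diet group, r for Fkbp5 and Tsc22d3 was 0.665 in males and 0.65 in females. For Sgk1 and Tsc22d3 it was 0.404 in males and 0.713 in females, and for Fkbp5 and Sgk1 0.341 and 0.447. The p values above are for values not centred, so differences between diet groups enter them. Genes read in the same library share its depth and scaling.

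**Figure D4:**
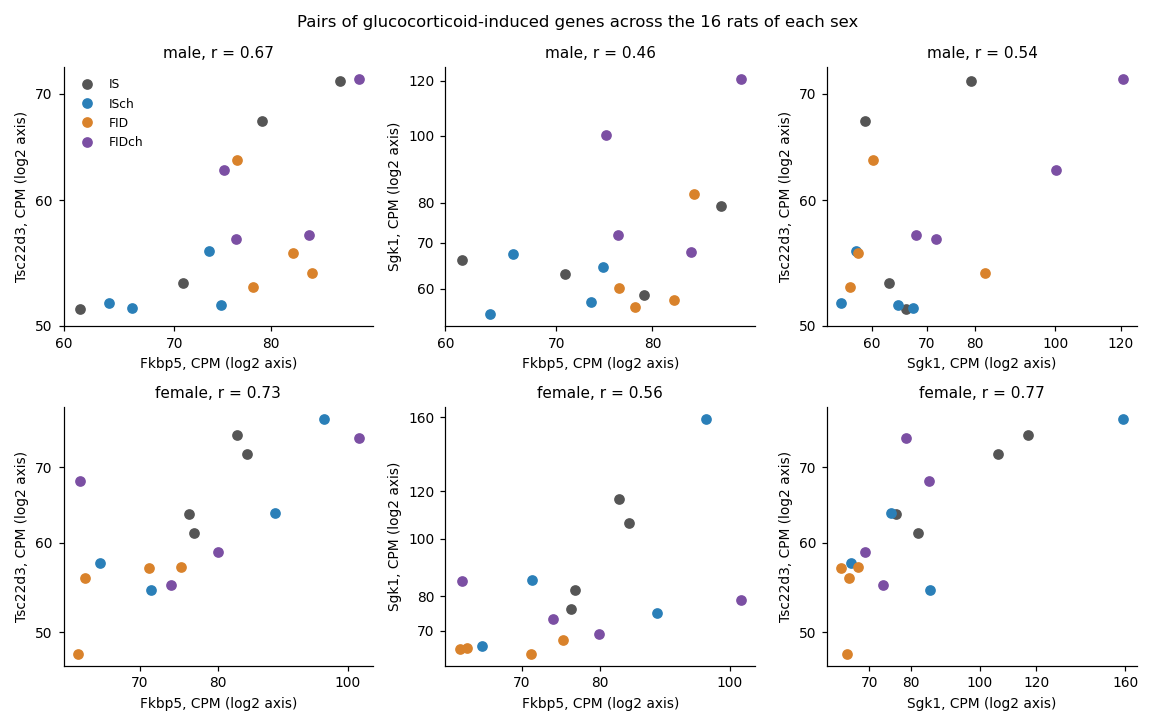
CPM of pairs of target genes, both axes on a log2 scale, with a point per rat coloured by diet, 16 males above and 16 females below. Fkbp5 and Tsc22d3 lie along a rising band in each sex (r of 0.667 and 0.728), and the male Sgk1 panels are set apart by the 2 FIDch rats at 100.3 and 121 CPM.

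Other pairs of members are given as a description, over the 16 rats of a sex that share depth and scaling. Nr3c2 and Hsd11b1 ran against each other, with r of -0.697 in males and -0.699 in females. Crhr1 and Hsd11b1 had r of 0.518 in males and -0.215 in females, and Crhr1 and Nr3c2 -0.483 and 0.329.

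A further 22 genes known to be induced by glucocorticoids were listed, of which 21 had a row. This list was chosen with earlier results of these data known, so its counts are no independent support for the calls above. In female FID against IS rats, 10 of the 21 were lower and 0 higher at the criterion, against 3.4% of all genes called lower and 3.08% called higher. The median log2 fold change of the 21 was -0.24, beside 0.000279 over all genes, and 1 of the 21 was above 0. Pdk4, a kinase that closes pyruvate dehydrogenase, was lowest at -0.87 (SE 0.19), with 1.77 ± 0.33 CPM in FID against 3.25 ± 0.50 in IS. Ddit4, an inhibitor of mTOR signalling, fell from 58.5 to 69.7 CPM in IS to 42.1 to 50.0 CPM in FID, at -0.52 (SE 0.072) with an adjusted p of 0.0119 by edgeR. Plin4, a lipid droplet coat protein, was -0.47 (SE 0.19). Leaving out IS replicate 1 gave 6 lower genes, and leaving out IS replicate 3 gave 12.

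The list's medians in the other female comparisons were closer to 0. In FIDch against FID, 3 of the 21 were higher, against 5.59% of all genes, and 0 lower, 18 lay above 0 and the median was 0.18. The highest were the metallothionein Mt1 at 0.81, Arrdc2, an arrestin-domain protein, at 0.65 (adjusted p = 0.0183) and Mt2A at 0.48. Mt1 and Mt2A are close in sequence, and how reads shared between copies were counted is not stated. That count was 8 without FIDch replicate 2 and 6 without FIDch replicate 3. In FIDch against IS 1 was higher, Arrdc2 at 0.29, and 1 lower, Plin4 at -0.82, where 4.16% of all genes were called higher and 4.82% lower. No gene was higher there without IS replicate 2 or 3 or FIDch replicate 1 or 4, and 4 were lower without FIDch replicate 4. In ISch against IS 5 were higher and 1 lower with a median of 0.16, against 5.14% and 5.15% of all genes, led by Mt1 at 0.68, Plin4 at -0.59 and Mt2A at 0.55. In that comparison the count of higher genes was 8 without IS replicate 1 and 9 without ISch replicate 1. Immediate early genes, which follow neuronal activity, had 5 of 8 higher in that comparison, against those 5.14%, and 3 higher and 1 lower in FID against IS, against 3.08% and 3.4%.

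In males most calls in the list were in FIDch rats. Against FID, 5 of 19 tested genes were higher and 0 lower, 16 lay above 0 and the median was 0.19, against 5.74% of all genes called higher. The largest were Pdk4 at 0.78, the clock gene Per1 at 0.43 (adjusted p = 0.0347) and Ddit4 at 0.38. Per1 was at 70.2 to 93.3 CPM in FIDch and at 54.3 to 62.1 CPM in FID, with no overlap, as in 10.6% of all genes. The count was 3 without FID replicate 2 or 3 or FIDch replicate 1. Against IS, 3 were higher (2.91% of all genes), Pdk4 at 0.67, Per1 at 0.39 and the transcription factor Klf9 at 0.23, and the count was 1 without FIDch replicate 2. In FID against IS only Angptl4, an inhibitor of lipoprotein lipase, was lower (-0.51), against 2.28% of all genes, and 4 of 19 lay above 0 with a median of -0.12. That call was lost without IS replicate 1 or 2 or FID replicate 2, and 3 genes were lower without IS replicate 3. In ISch against IS Mt2A (-0.46) and Angptl4 (-0.46) were lower, against 3.54% of all genes, and the count was 4 without IS replicate 3 and 5 without ISch replicate 4.

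**Figure D5:**
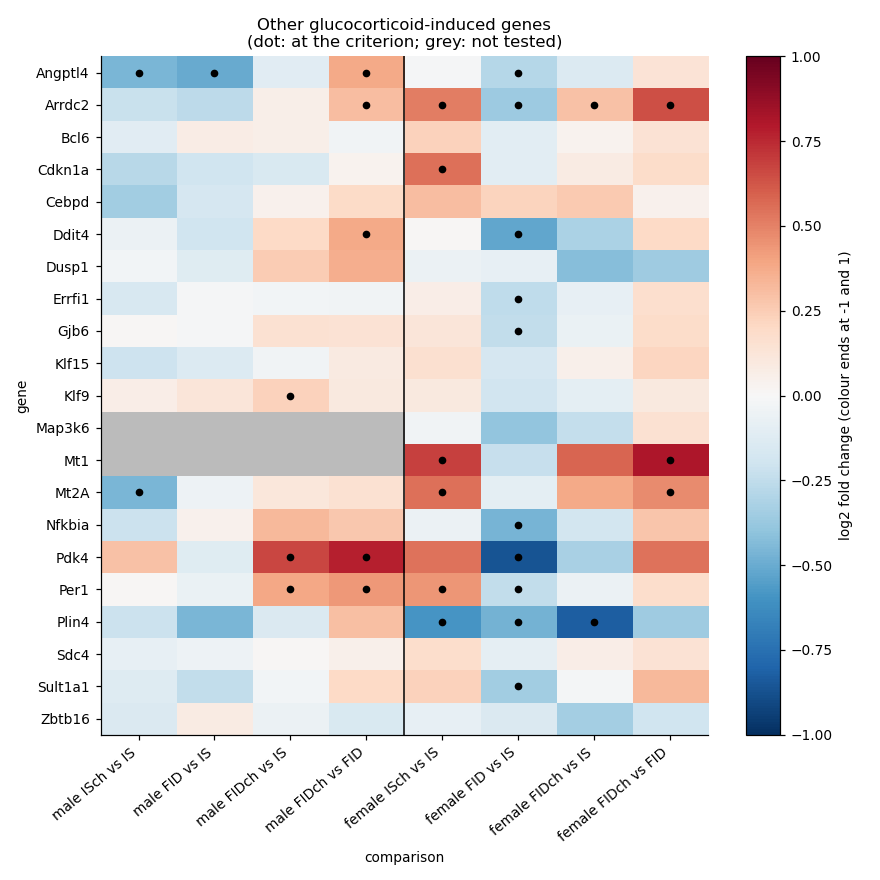
Log2 fold change of 21 other glucocorticoid-induced genes (rows) in the 8 comparisons (columns, males left and females right), on a colour scale that ends at -1 and 1. Dots mark calls and grey marks genes not tested in males. The female FID against IS column is blue in all genes but 1 and holds 10 dots. The list was chosen with earlier results of these data known.

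Of 12 listed CRH and pituitary peptides and receptors, 1 to 5 passed the filter on low counts. In males 0 of these were called by edgeR or DESeq2 in a pairwise comparison, and 0 had an unadjusted p under 0.05 by edgeR, but 1 was called higher in ISch and in FID against IS without IS replicate 2. In females 1 of 5 was called in ISch and in FID against IS, 3 of 5 in FIDch against IS and 3 of 5 in FIDch against FID, the last 2 against 8.98% and 12.7% of all genes. Crh, the hormone itself, was at 1.81 to 2.08 CPM in female FIDch rats, above IS by 0.82 (SE 0.25, adjusted p = 0.19) and above FID by 0.46 (SE 0.19, adjusted p = 0.224). Avpr1a, a vasopressin receptor, was 0.50 above IS and 0.65 above FID in the same rats, and Oxtr, the oxytocin receptor, was -1.08 against FID. Against IS only 1 gene was called higher without IS replicate 2 or 4 or FIDch replicate 3 or 4. Against FID only 1 was called higher without FID replicate 2 or 4 or FIDch replicate 2, 3 or 4, and 0 without FID replicate 3. Pomc was called lower in all 3 female comparisons with IS, and that rests on the 120.9 CPM of IS replicate 3, without which 0 of these genes were called lower.

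Of 15 receptor chaperones and coregulators with a row, 1 to 4 were called in each pairwise comparison, against 4.62% to 13% of all genes. The 4 were in male FIDch against FID. Hsp90aa1, a chaperone that holds steroid receptors ready for hormone, was higher in male FID (0.68) and lower in male FIDch (-0.67) than in IS. Against FID it was -1.35 in FIDch (SE 0.18, adjusted p = 0.00736 by edgeR), with 8.20 to 14.7 CPM against 21.6 to 36.4. Its count is uncertain, because close copies of Hsp90 genes exist and the treatment of shared reads is not stated, and in the female table it was at 0.40 to 3.17 CPM. Crebbp, a coactivator with acetyltransferase activity, was lower in females in ISch (-0.30, adjusted p = 0.0275), FID (-0.25) and FIDch (-0.38) against IS, and higher in male ISch (0.31), where the call was lost without ISch replicates 1 and 2 together. Of the 6 other genes of corticosteroid metabolism and transport with a row, 3 or 4 passed the filter and 0 were called in the 8 comparisons of diets by edgeR's test. Abcb1a, an efflux pump of the blood-brain barrier, came nearest, at -0.16 in female FID and -0.15 in female FIDch against IS within the p limit but not past the fold limit.

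The design crosses early iron with prenatal choline, so the effect of choline in formerly iron-deficient rats was compared with that in iron-sufficient rats. In males this difference was called in 5 of 7 members, 4 higher and 1 lower, against 14.4% of all genes, and none had an adjusted p below 0.05 by edgeR. Of all 14314 genes tested, 1 had an adjusted p below 0.05. Crhr1 came to 1.13 (SE 0.32, adjusted p = 0.169), Sgk1 to 0.59 (SE 0.22, adjusted p = 0.233), Nr3c2 to -0.39 (SE 0.14, adjusted p = 0.221), Tsc22d3 to 0.33 (SE 0.14, adjusted p = 0.271) and Hsd11b1 to 0.23 (SE 0.11, adjusted p = 0.316). Crhr1 and Nr3c2 were called in all 24 alternatives. Sgk1 was lost only when the 3 male libraries with another form of name, ISch replicates 1 and 2 and FIDch replicate 2, were left out together (0.32). Tsc22d3 was lost in 8 alternatives, without IS replicate 1 (0.28) or 2 (0.24), ISch replicate 1 (0.31) or 4 (0.31), FID replicate 3 (0.30) or 4 (0.31) or FIDch replicate 2 (0.27), or without those 3 libraries (0.29). Hsd11b1 was lost in 16, among them DESeq2 (0.23) and the fits without IS replicate 1 or 3, ISch replicate 1, 2 or 3, FID replicate 3 or 4 or FIDch replicate 1, 2 or 3, with values from 0.17 to 0.24. Of the 19 other glucocorticoid-induced genes tested, 5 were called higher (6.84% of all genes) and 18 lay above 0, with a median of 0.40 beside 0.0095 over all genes. That count was 3 without the 3 libraries.

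In females the same difference was called in 1 of 7 members (7.33% of all genes), Tsc22d3 at 0.34 (SE 0.15, adjusted p = 0.526). The call was lost with the replicate block (0.34) and without IS replicate 1 (0.31) or 4 (0.29), ISch replicate 1 (0.30), 2 (0.34) or 4 (0.27), FID replicate 4 (0.28) or FIDch replicate 1 (0.26) or 4 (0.31). Sgk1 was at 0.21 with an interval from -0.39 to 0.81, and it met the criterion without ISch replicate 3 (0.56). Of the 21 other glucocorticoid-induced genes 0 were called in edgeR's test, and 11 lay above 0.

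Whether a diet acted differently in males and females was tested as the difference of their effects, male minus female, with sex and batch inseparable. For FID against IS, 3 of 7 members were called (7.64% of all genes). These were Sgk1 at 0.50 (SE 0.19, adjusted p = 0.525), Fkbp5 at 0.34 (SE 0.12, adjusted p = 0.486) and Crhr1 at -0.99 (SE 0.34, adjusted p = 0.474). The Sgk1 call was lost without male FID replicate 4 (0.34), and the Fkbp5 and Crhr1 calls were kept in all 22 alternatives. Tsc22d3, at 0.22 with an interval from -0.076 to 0.53, was not called, though it met the criterion without male IS replicate 2 (0.29). Nr3c2, at 0.27, was not called either, and met it without male FID replicate 1 (0.32) or female IS replicate 3 (0.33), with the replicate block (0.27) and with all genes of at least 1 count (0.28).

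For ISch against IS, 3 members were called (14.2% of all genes): Hsd11b1 at -0.30 (SE 0.084, adjusted p = 0.0865), Crhbp at -0.51 (SE 0.15, adjusted p = 0.104) and Nr3c2 at 0.32 (SE 0.13, adjusted p = 0.24). The Nr3c2 call was lost without male IS replicate 1 (0.20) or female IS replicate 2 (0.29). In FIDch against IS, 3 were called (12.9%), namely Sgk1 at 0.73 (SE 0.23, adjusted p = 0.165), Crhbp at -0.58 (SE 0.25, adjusted p = 0.311) and Hsd11b1 at -0.25 (SE 0.10, adjusted p = 0.27). The Sgk1 call was kept in all 23 alternatives. The Hsd11b1 call was lost without male IS replicate 1 (-0.19) or male FIDch replicate 4 (-0.22). The Crhbp call was lost in 9 alternatives, among them without male IS replicate 1 (-0.50) or 3 (-0.57), male FIDch replicate 2 (-0.48) or 3 (-0.57), female IS replicate 1 (-0.54) or 4 (-0.54) and female FIDch replicate 1 (-0.53) or 2 (-0.42). Nr3c2, at 0.28 there, was not called but met the criterion without male IS replicate 3 (0.32) or 4 (0.33) or female IS replicate 3 (0.34), with the replicate block (0.29) and with all genes of at least 1 count (0.28). Crhr1, at -0.63, met it without male FIDch replicate 4 (-0.79) or female IS replicate 4 (-0.77). In all 3 of these tests no member had an adjusted p below 0.05 by edgeR, where 0.0396% (FID) to 1.28% (ISch) of all genes had one. Of the 21 other glucocorticoid-induced genes, 10 were called in ISch against IS, all lower in the male minus female difference (6.84% of all genes), led by Mt2A at -1.01, Cdkn1a at -0.82 and Arrdc2 at -0.73, and 4 without male IS replicate 2. In FID against IS 5 were called, all higher (3.9%), led by Nfkbia at 0.52, Ddit4 at 0.34 and Klf9 at 0.33, and 3 without male IS replicate 1, male FID replicate 2 or 3, female IS replicate 1 or 4 or female FID replicate 4. In FIDch against IS 5 were called higher (6.2%), led by Map3k6 at 1.28, Pdk4 at 0.997 and Ddit4 at 0.51, and 1 without female IS replicate 4.

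Genes whose levels most resembled those of each member were ranked among 12596 genes by the smaller of the correlations over the 16 males and over the 16 females, as a description. Nr3c2 had the closest likenesses, with Gnaq (r of 0.896 in males and 0.89 in females), Opcml (0.874 and 0.873) and Anks1b (0.937 and 0.871). Gpd1 came out on top for both Tsc22d3 (0.865 and 0.903) and Sgk1 (0.80 and 0.787). Sgk1 was next most like Nfkbia (0.716 and 0.903), which is also in the list of glucocorticoid-induced genes, and Tp53bp2 (0.698 and 0.87). Tsc22d3 was followed by Tsc22d1 (0.724 and 0.812) and Smim3 (0.819 and 0.713), and Fkbp5 was most like Arhgef3 (0.756 and 0.774), Gpatch4 (0.721 and 0.721) and Agtrap (0.711 and 0.789). For Crhbp these were Smc1a (0.762 and 0.744), Scg2 (0.726 and 0.762) and Cct5 (0.752 and 0.704). For Hsd11b1 they were Phyh (0.706 and 0.83), Sugp1 (0.732 and 0.694) and Coro7 (0.701 and 0.681). Crhr1, the rarest member, had the loosest likenesses, with Egfl7 (0.661 and 0.678), Rsph3 (0.719 and 0.656) and Rasgef1c (0.65 and 0.618).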

How the data were processed

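Hippocampal RNA of 16 male and 16 female rats was sequenced, 4 rats per diet group and sex. The deposited raw counts per gene were made by the authors, whose processing notes name Trimmomatic, FastQC, HISAT2, featureCounts from Subread and the Rnor_6.0 build. The library kit was the same in both sexes and the RNA kits differed. Whether strand was used, how reads matching several genes were counted and the annotation version are not given in the sources used here, so counts of overlapping genes and close copies are uncertain. One table held the males and the other the females, and no column was left without a sample.

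Each pair of groups was fitted apart, as in the study's methods. The fits used edgeR 4.0.16 in R 4.3.3, with genes filtered by filterByExpr and scaled by TMM. The test was the quasi-likelihood test, 2-sided, with Benjamini-Hochberg adjustment over all genes tested. The study's methods name edgeR within CLC Genomics Workbench, but not this filter, scaling or test. A gene was called at an absolute log2 fold change above 0.2 with p below 0.05, the study's criterion. The iron by choline interaction, the test over the 4 diets and the difference between the sexes used a fit of all groups concerned. Members were found by symbol, the part of the row name after the Ensembl identifier. The members and the gene lists were chosen with earlier results of these data known, so a list is described by counts and medians and has no test of its own. Genes of a list are named where they met the criterion, at most the 3 largest per list and comparison, besides those named to describe an exception, which were chosen after their values were seen. Levels are CPM, counts scaled to library size, after TMM within a sex, and no gene lengths were at hand, so levels are not compared between genes. Correlations used log2 CPM with a prior count of 2 and 100000 permutations in scipy 1.17.1, and single values the exact permutation test. Promoter windows of 250 bases came from RefSeq, assembly GRCr8, whose coordinates differ from those of the counting build.

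Replicates differed by more than counting noise in all 48 pairs within groups (chi-square per gene 2.02 to 25.2), so each library was kept as a sample. Counting error is largest for Crhr1, at 7 to 38 counts per male library and 29 to 101 per female library. Alternatives were other scalings, filters and tests (DESeq2 1.42.0 among them), a fit over the 4 diets, a replicate block, leaving out each library, and, chosen after seeing the data, leaving out 3 male libraries with another form of name. The scripts were tested on simulated data. The ratio of Nr3c2 to Nr3c1 was not run, because Nr3c1 was not analysed here.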

Additional observations from a re-analysis of the deposited data

Results flagged for a closer look

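Among the 56 groups of 4 rats and 1 gene, 5 held a rat whose gap to its nearest neighbour exceeded Dixon's 95% critical value for a group of 4, and chance gives about 1 in 20 groups. Nr3c2 stood at 75.9 CPM in male IS replicate 1, below the other 3 controls, and Sgk1 at 82.3 CPM in male FID replicate 4, above the other 3 FID rats. The latter library also held the choroid plexus markers, at 390.6 CPM in sum. Tsc22d3 stood at 55.7 CPM in male ISch replicate 2 and at 47.9 CPM in female FID replicate 4. That same female had the highest Hsd11b1 level of its group, 69.5 CPM.

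The effect of choline was compared between formerly iron-deficient and iron-sufficient rats by the interaction term of edgeR's fit. In males this term was called for 5 of 7 members, against 14.4% of all genes. On the log2 scale it was 1.13 for Crhr1, 0.23 for Hsd11b1, 0.59 for Sgk1, -0.39 for Nr3c2 and 0.33 for Tsc22d3. Hsd11b1, Tsc22d3 and Sgk1 lost the call in 16, 8 and 1 of 24 alternatives. In females the term was called for Tsc22d3 alone, at 0.34, against 7.33% of all genes, and lost in 9 of 23 alternatives. No member had an adjusted p below 0.05 for this term in either sex, and of all genes tested 1 had one in each sex.

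The difference between the sexes in the effect of a diet, male minus female, was called in 9 cases. Again no adjusted p of a member was below 0.05 by edgeR, where 0.0396% (FID) to 1.28% (ISch) of all genes had one. In ISch against IS the called members were Hsd11b1 at -0.30, Crhbp at -0.51 and Nr3c2 at 0.32, against 14.2% of all genes. In FID against IS they were Crhr1 at -0.99, Sgk1 at 0.50 and Fkbp5 at 0.34, against 7.64%. In FIDch against IS they were Hsd11b1 at -0.25, Sgk1 at 0.73 and Crhbp at -0.58, against 12.9%. Sex, sequencing batch and RNA kit cannot be told apart in these values.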

How the results depend on the processing

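Of 105 results for the members, 39 met the criterion, of which 14 kept it in every alternative and 25 lost it in at least 1, and none of the 39 changed sign. Over all genes tested, 4.62% to 17.6% met it, depending on the comparison. The 105 results share rats and so are not independent. How many of all genes were called under each alternative is not given here, so the counts below cannot be set against that. With adjusted p in place of the criterion, the number of members called was 0 in each comparison except the female test over the 4 diets, where it was 1. The number of members called in male ISch against IS was 1, and became 2 with library size alone, 3 with all genes of at least 1 count, 3 in a fit of the 4 diets and 2 with the replicate block. A fit of the 4 diets gave 0 in female ISch against IS and 1 in female FIDch against IS. The replicate numbers did not pair the rats (median correlation of same-numbered rats -0.0102 in males and -0.0109 in females). With the replicate block the count was 1 in male FIDch against FID, 1 in female FIDch against IS, 0 in the female interaction and 2 in the female test over the 4 diets. Without the 3 male libraries of another name form it was 0 in male FIDch against IS, 1 in male FIDch against FID, 2 in the male interaction and 1 in the male test over the 4 diets. With single libraries left out the counts ranged as follows. For ISch, FID and FIDch against IS and FIDch against FID they were 1 to 4, 1 to 2, 0 to 1 and 1 to 2 in males and 0 to 3, 2 to 3, 0 to 3 and 3 to 5 in females. For the interaction they were 3 to 5 in males and 0 to 2 in females, for the test over the 4 diets 2 to 6 and 1 to 5, and for the sex differences in ISch, FID and FIDch 2 to 3, 2 to 4 and 1 to 4.

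Centred on diet, the correlation of Sgk1 with Tsc22d3 in males was 0.404 and that of Fkbp5 with Sgk1 in females 0.447, neither past the threshold. With single rats left out, r ranged from 0.323 to 0.667 for Sgk1 with Tsc22d3 in males, and from 0.269 to 0.539 in males and 0.412 to 0.683 in females for Fkbp5 with Sgk1.

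Sign changes occurred only among members that were not called, in 15 results, with reported values between -0.13 and 0.14. With single libraries left out the log2 values were -0.20 to 0.031 for Sgk1 in male FID against IS, -0.012 to 0.15 for Nr3c2 in male FIDch against IS, -0.057 to 0.10 for Tsc22d3 in the same comparison, -0.044 to 0.045 for Fkbp5 in male FIDch against FID, -0.025 to 0.073 for Hsd11b1 there and -0.21 to 0.043 for Crhbp in the male interaction. In females they were -0.34 to 0.15 for Sgk1 in female ISch against IS, -0.091 to 0.088 for Fkbp5 there, -0.033 to 0.068 for Nr3c2 in female FID against IS, -0.14 to 0.0896 for Fkbp5 in female FIDch against IS, -0.13 to 0.20 for Crhr1 in female FIDch against FID and -0.026 to 0.28 for Crhbp in the female interaction. Between the sexes they were -0.28 to 0.22 for Sgk1 in the sex difference of ISch, -0.17 to 0.0094 for Tsc22d3 there and -0.078 to 0.032 for Hsd11b1 in the sex difference of FID. Library size alone turned Fkbp5 in female FIDch against IS to 0.014 and Crhr1 in female FIDch against FID to 0.0029. The replicate block turned Crhr1 in the latter to 0.0047, and Sgk1 and Fkbp5 in female ISch against IS to -0.057 and -0.011. Without the 3 male libraries, Tsc22d3 in male FIDch against IS came to -0.048 and Fkbp5 in male FIDch against FID to -0.044. The cause of these changes was not tested. The planned ratio and correlation of Nr3c2 with Nr3c1 were not run. The depth limits Crhr1 most, with 7 counts in the shallowest library.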
